A study of Mus musculus with 16 samples.

Results

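The footprints of exon 5 KO clone #2, called KO2, were compared with those of WT Hepa1-6 cells, gene by gene. Hepa1-6 is a mouse hepatoma cell line that still makes albumin and alpha-fetoprotein. KO2 is 1 clone grown from a single cell after CRISPR-Cas9 cutting on both sides of exon 5 of Eef1d with the plasmids pS1 and pS4, and the labels give no other allele or agent for either line. KO2 and WT were sequenced as 2 Ribo-seq and 2 RNA-seq libraries each, among 16 libraries that also hold clone #1 (KO1), made with the same plasmid pair, and clone #3 (KO3), made with pS2 and pS4. Because KO2 is 1 clone, the loss of exon 5 and any other difference between this clone and the WT cells cannot be told apart. The study's methods call the 2 Ribo-seq replicates of a line biological replicates, and the labels do not say how far apart they were cultured, so the p-values measure the spread between samples of 1 line and not between clones.

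The table holds 22392 gene symbols, and each was represented by the transcript with the largest sum of counts over the 16 libraries. In the 4 Ribo-seq libraries of KO2 and WT, 14431 symbols had at least 1 footprint and 10370 passed edgeR's filter on low counts and were tested. The other 4061 symbols with a footprint were left out, and none of them had more than 48 footprints over the 4 libraries.

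Ribosome footprints are the stretches of mRNA that a translating ribosome shields from RNase. Counted over a coding sequence, they follow the rate of protein synthesis from that gene as long as ribosomes move at a like speed, since a gene gains footprints when it has more mRNA or when each mRNA carries more ribosomes. Eef1d encodes a subunit of the EEF1B complex, which with EEF1B2, EEF1G and the valyl-tRNA synthetase VARS reloads EEF1A, the carrier of aminoacyl-tRNA, with GTP. Exon 5 adds the stretch through which EEF1D holds on to the ER protein KTN1. The comparison therefore asks which proteins were made more or less in cells whose EEF1B complex lacks this anchor.

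Exon 5 of Eef1d is the sequence that WT cells have and KO2 was edited to lose. It lies on the minus strand of GRCm38 at chr15:75900691-75900762, within the coding sequence, and its 72 bases make 24 codons. It is printed 5′ to 3′ on the minus strand, with the exon in capitals and 12 bases of the intron on either side in lower case.
Eef1d exon 5: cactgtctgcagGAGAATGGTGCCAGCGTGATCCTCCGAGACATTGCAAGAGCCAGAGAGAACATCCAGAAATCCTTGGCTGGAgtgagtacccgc

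The exon can be followed in the footprints through a pair of Eef1d transcripts whose counted sequences of 272 and 248 codons differ by these 24. Nearly all footprints of the pair lie in the shared codons and count for both, so the counts do not say how much of either form was made. The transcript with exon 5 had 1111 and 727 footprints in WT cells, against 987 and 638 on the one without it, which is 112.6% and 113.9%. In KO2 it had 1118 and 793 footprints against 1161 and 824, which is 96.3% and 96.24%. The longer sequence thus gained footprints over the shorter one in WT cells and did not in KO2.

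With 1 transcript per gene, the WT libraries held 3583764 and 2370913 footprints and the KO2 libraries 3990735 and 2991723. Pearson's r of log2 CPM (counts scaled to a common library size after TMM) across the genes tested was 0.986 between the WT replicates and 0.988 between the KO2 replicates. Of 16 hepatocyte markers, 10 were tested, with Alb, Afp, Trf, Apob, Hnf4a and Foxa2 above 40 CPM in every library, while Apoa1, Ttr and Serpina1a stood below 2 CPM and Ahsg was at 0. The 7 endothelial markers held at most 1.405 CPM each, and Adgre1 and Tyrobp of the macrophage list, Myod1, Myog and Myf5 of the muscle list and Lum of the fibroblast list were at 0 in all 4 libraries. Other members of these lists had footprints. Cd14 of the macrophage list had 26.41 and 19.15 CPM in WT cells against 17.14 and 18.91 CPM in KO2. Cd68 of that list had 8.428 and 6.245 CPM in WT cells against 7.816 and 6.753 CPM in KO2. Pdgfra of the fibroblast list had 11.52 and 10.41 CPM in WT cells against 6.303 and 7.429 CPM in KO2. Decorin (Dcn), on the fibroblast list, and the actin Acta1, on the muscle list, were well above 0, with 2197 and 2195 CPM in WT cells against 1913 and 1806 CPM in KO2 and 541 and 549.5 CPM in WT cells against 639 and 627 CPM in KO2. Acta1 was the 1 muscle marker tested, with a log2 fold change of KO2 over WT of 0.22 in footprints and of -0.34 in RNA, where it was not called. Whether its footprints are shared with other actin genes was not tested.

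edgeR's quasi-likelihood test called 1213 of 10370 genes (11.7%) at an adjusted p under 0.05, 699 higher in KO2 (6.74%) and 514 lower (4.96%), and 2511 genes had an unadjusted p under 0.05. Most of these changes were small. The median size of a called change was 0.48 on the log2 scale for the genes that rose and 0.51 for those that fell, and 99 rises and 94 falls went past 1. The KO2 values lay outside the WT values in both libraries for 1211 of the called genes, which is a weak criterion here because 52.2% of all genes tested met it. The share of genes called rose with the number of footprints, from 6.08% of the 2074 genes with the fewest footprints to 23.2% of the 2074 with the most. For a list of genes with many footprints, the share over all genes is therefore a low background. DESeq2's Wald test on the same counts called far fewer genes, 186 higher and 138 lower. Without WT replicate 1, edgeR called 414 higher and 296 lower. In bulk cells, fewer cells that make a protein and less mRNA per cell cannot be told apart.

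The position of a gene went with the direction of its change. Chromosomes 1 and 8 held 11.2% of the genes tested and 336 of the 699 genes that rose (48.1%), while chromosomes 10 and 12 held 8.45% of the genes tested and 175 of the 514 that fell (34.0%). On chromosome 1, 190 of 607 genes rose and 10 fell, and on chromosome 8, 146 of 554 rose and 8 fell. On chromosome 10, 12 of 517 genes rose and 129 fell, and on chromosome 12, 6 of 359 rose and 46 fell. Over the 4 chromosomes 26.9% of the genes tested were called, and over the rest of the genome 7.99%. These 4 chromosomes were singled out after their values were seen.

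The shift took in whole chromosomes and not only the genes that were called. The median log2 fold change was 0.28 on chromosome 1, where 84.3% of the genes lay above 0, and 0.27 on chromosome 8, where 85.9% did. It was -0.26 on chromosome 10, with 17.6% of the genes above 0, and -0.20 on chromosome 12, with 25.6%. As fold changes, these medians stand for 21.4% and 20.5% more footprints and for 16.7% and 13.2% fewer. On the other 16 chromosomes the medians lay between -0.129 and 0.080, the lowest on chromosome 18 and the highest on chromosome 9, and the median over all genes tested was 0.0014. Set against the mean of the WT libraries, chromosome 1 had a median of 0.27 in KO2 replicate 1 and 0.28 in replicate 2, and chromosome 10 had -0.26 and -0.25. The spread between replicates was much smaller than these shifts, since the median of no chromosome differed by more than 0.035 between the WT replicates or 0.048 between the KO2 replicates. With 2 libraries against 2, an exact permutation test of a chromosome median cannot give a two-sided p below 0.333, so no p is given. No DNA was sequenced in this series, and the number of copies of each chromosome was not measured in either line.

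**Figure D1:**
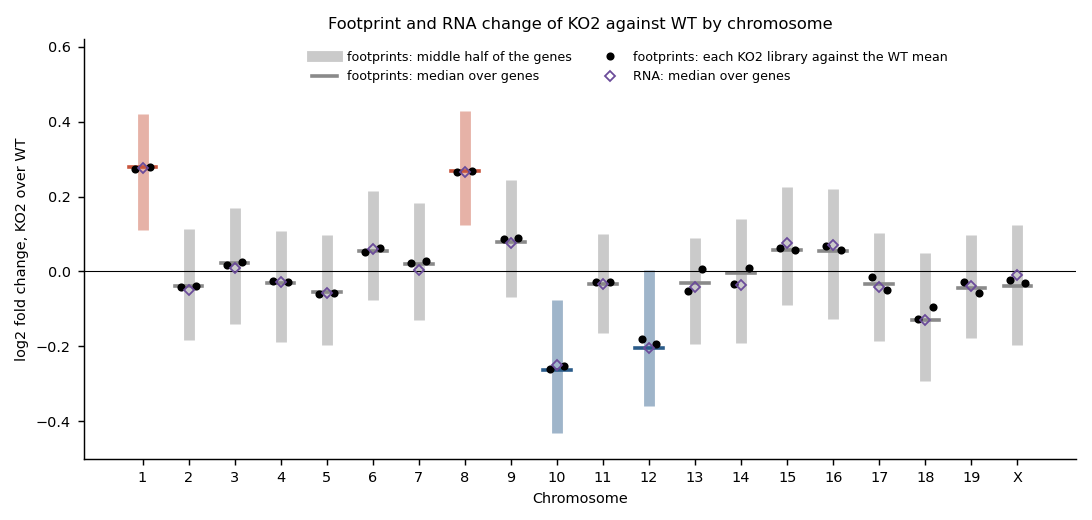
The log2 fold change of KO2 over WT is shown for each chromosome, with the range from the lower to the upper quartile as a bar, the footprint median as a line, each KO2 library against the WT mean as a dot and the RNA median as a diamond. Chromosomes 1 and 8 stand at 0.28 and 0.27, chromosomes 10 and 12 at -0.26 and -0.20, and the other 16 between -0.129 and 0.080.

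The shift ran along the full length of each of the 4 chromosomes. Cut into blocks of about 40 tested genes in chromosomal order, chromosome 1 gave 15 blocks whose medians lay between 0.15 and 0.39, and chromosome 8 gave 14 blocks between 0.17 and 0.33. The 13 blocks of chromosome 10 lay between -0.36 and -0.16, and the 9 blocks of chromosome 12 between -0.23 and -0.13. None of these 51 blocks had a median on the other side of 0. On chromosome 18 the medians of 7 blocks ran from -0.37 to -0.020, where the lowest block rests on KO2 replicate 1, with -0.45 against the WT mean and -0.087 in replicate 2. On chromosome 2, with 21 blocks, they ran from -0.10 to 0.020. Counted as shares of all footprints, chromosome 1 made up 5.26% and 5.42% in WT cells and 6.39% and 6.26% in KO2, and chromosome 10 made up 5.37% and 5.41% in WT cells and 4.48% and 4.42% in KO2.

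**Figure D2:**
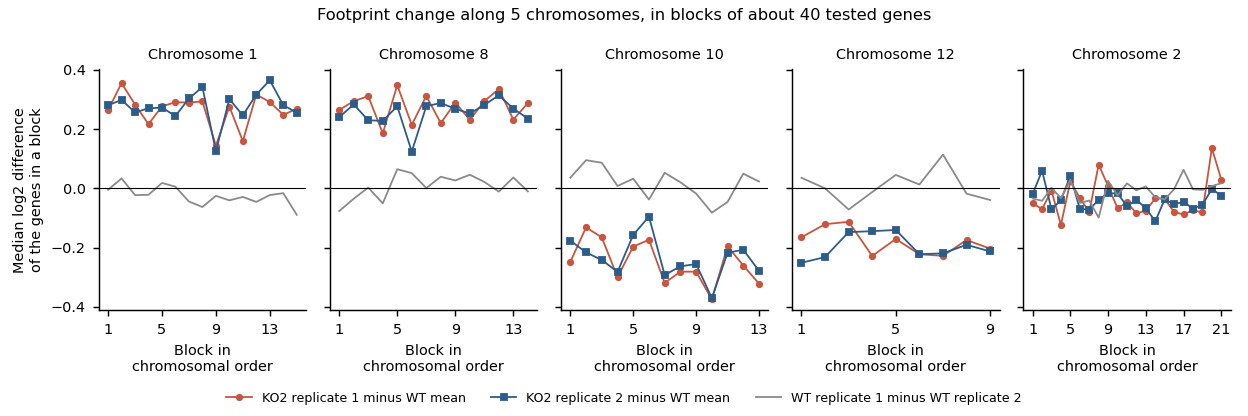
Each point is the median log2 difference over a block of about 40 genes, in the order of the genes along the chromosome, for each KO2 replicate against the WT mean and for the WT replicates against each other. Both KO2 lines stay above 0 on chromosomes 1 and 8 and below 0 on chromosomes 10 and 12, while the grey WT line and both lines of chromosome 2 lie on both sides of 0, up to 0.114 for WT on chromosome 12 and 0.136 for KO2 replicate 1 on chromosome 2.

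Some genes went against their chromosome. On chromosomes 1 and 8, 18 genes fell. They include Serpinb11, a serine protease inhibitor of chromosome 1, with 16 and 17 footprints in WT cells and 0 in both KO2 libraries, and Apela, which encodes a small secreted ligand and lies on chromosome 8, with 3.65 and 5.41 CPM in WT cells against 0.504 and 0.338 CPM in KO2. A count of 0 allows up to 3 footprints over both KO2 libraries, which puts the fall of Serpinb11 at least 12.8-fold, and the ratio for Apela, on 3 footprints in KO2 and 26 in WT cells, was 10.1 with a 95% counting interval from 3.09 to 52.0. Fibronectin (Fn1), on chromosome 1, had 1865 and 1969 CPM in the WT libraries and 1753 and 1503 CPM in the KO2 libraries and fell by 0.23 on the log2 scale (SE 0.067, edgeR adjusted p = 0.019). Acsl1 on chromosome 8, which activates fatty acids, fell as well (log2 fold change -0.66, SE 0.0994, edgeR adjusted p = 1.92e-05). On chromosomes 10 and 12, 18 genes rose, among them Apob, the protein of very-low-density lipoprotein, and Lamb1, a laminin chain, both on chromosome 12.

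The largest changes are given for called genes with a mean of at least 10 CPM in the higher line, whose KO2 values both lay outside the WT values. A lone number in brackets after a gene is its footprint log2 fold change of KO2 over WT. Among these genes, the largest rises took genes from few footprints to moderate numbers. B3gnt3, which builds glycan chains and lies on chromosome 8 (chr8:71690756-71701789), had 2.25 and 2.91 CPM in the WT libraries and 17.4 and 25.7 CPM in the KO2 libraries, an 8.23-fold rise (log2 fold change 3.04, SE 0.32, edgeR adjusted p = 5.33e-08). Gm49394, a predicted gene of chromosome 7 (chr7:142650769-142669942) to which no role is given here, had 11 and 6.25 CPM in the WT libraries and 66.1 and 64.2 CPM in the KO2 libraries (log2 fold change 2.85, SE 0.181, edgeR adjusted p = 1.56e-12). Whether Gm49394 overlaps another gene or shares footprints with it was not tested. Papss2, which makes the sulfate donor of sulfated glycans, had 15.2 and 14.6 CPM in the WT libraries and 49.4 and 49.3 CPM in the KO2 libraries (log2 fold change 1.72, SE 0.162, edgeR adjusted p = 5.83e-09). In each of them both KO2 libraries lay far above both WT libraries.

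The other 9 of the 12 largest rises had log2 fold changes from 1.63 to 2.88. Lpxn, an adaptor at focal adhesions, had 1.12 and 2.08 CPM in WT cells against 13.1 and 9.12 CPM in KO2, and Slfn2, of the Schlafen family, 2.53 and 1.25 CPM in WT cells against 11.8 and 10.1 CPM in KO2. Enpp1, an ectoenzyme that makes pyrophosphate, had 4.21 and 3.33 CPM in WT cells against 19.2 and 17.9 CPM in KO2 and rose although it lies on chromosome 10. So did Madcam1, an adhesion molecule (1.96), and Aldh1l2, a mitochondrial folate enzyme (1.63), both on the same chromosome. The remaining genes were Zfp423, a zinc finger transcription factor, with 1.99, Cyfip2 of the WAVE actin regulator with 1.93, Pwwp3b with 1.71 and Gmpr, which turns GMP into IMP, with 1.70.

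The largest falls were larger than the largest rises, and 3 genes had few or no footprints in KO2. Tnfrsf11b encodes osteoprotegerin, a secreted decoy receptor, and lies at chr15:54250619-54278484. It had 92 and 59 footprints in WT cells and 0 in both KO2 libraries, which puts it at least 58.5-fold lower (edgeR adjusted p = 4.85e-12). Rhox5, a homeobox gene of the X chromosome (chrX:37804842-37808876), had 254 and 231 CPM in the WT libraries and 0.252 and 1.69 CPM in the KO2 libraries, a 269-fold fall (log2 fold change -8.07, SE 0.21, edgeR adjusted p = 9.70e-23). Tm4sf1, a tetraspan membrane protein of chromosome 3 (chr3:57285611-57301988), had 205 and 126 footprints in WT cells and 2 and 1 in KO2, a ratio of 128 with a 95% counting interval from 43.5 to 625.

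Several of the other large falls were secreted proteins. Tff2, a mucosal trefoil peptide, had 36.8 and 45 CPM in WT cells against 1.76 and 4.73 CPM in KO2, and Lbp, which binds bacterial lipopolysaccharide in plasma, had 59.6 and 52 CPM in WT cells against 4.29 and 6.08 CPM in KO2. The chemokine Cxcl15 had 29.5 and 28.7 CPM in WT cells against 5.55 and 4.05 CPM in KO2. Their log2 fold changes were -3.71, -3.47 and -2.56, and the KO2 values lay far below the WT values in each case. The complement inhibitor Cfi (-2.97) and the fibrinogen chain Fgb (-2.78) are described with the plasma proteins, and the glutathione transferase Gstm7 had -3.03. The list ends with the membrane skeleton protein Add3 (-2.96), Clca3b (-2.28) and the receptor for sphingosine-1-phosphate S1pr1 (-2.28). None of these 12 genes lies on chromosome 1, 8, 10 or 12, which hold 19.6% of the genes tested. Of all 94 called falls past 1 on the log2 scale, 25 lie on these 4 chromosomes.

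**Figure D3:**
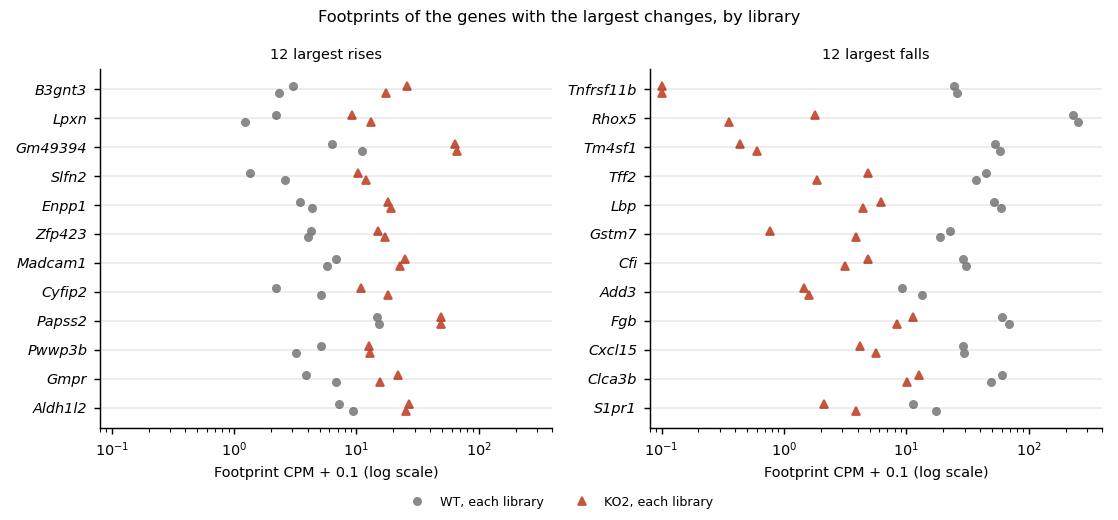
Footprint CPM plus 0.1 is shown on a log axis for the 12 largest rises (left) and falls (right), with WT libraries as circles and KO2 libraries as triangles. The genes were picked to have KO2 values wholly outside the WT values, which 52.2% of all genes tested had. Tnfrsf11b stands at 0 CPM in both KO2 libraries.

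Among the called genes with the most footprints the changes were small, and several of these genes again moved with their chromosome. Eef2, which moves the ribosome along the mRNA, and Atp5b, the catalytic subunit of mitochondrial ATP synthase, both lie on chromosome 10. Eef2 had 3341 and 3183 CPM in the WT libraries and 2831 and 2598 CPM in the KO2 libraries (log2 fold change -0.27, SE 0.0622, edgeR adjusted p = 0.004), and Atp5b 2813 and 2831 CPM in the WT libraries and 2222 and 2258 CPM in the KO2 libraries (log2 fold change -0.33, SE 0.0595, edgeR adjusted p = 0.00021). Dcn, with -0.24, and Rps26, with -0.31, fell on the same chromosome. On chromosome 1, the mitochondrial chaperonin Hspd1 rose by 0.20 and Rpl7 by 0.33 on the log2 scale, and Fn1 fell. On other chromosomes, the helicase Eif4a1 had 2305 and 2310 CPM in the WT libraries and 2013 and 1980 CPM in the KO2 libraries (log2 fold change -0.21, SE 0.0595, edgeR adjusted p = 0.0186), and Phgdh, the first enzyme of serine synthesis, had 2034 and 1969 CPM in the WT libraries and 1578 and 1542 CPM in the KO2 libraries (log2 fold change -0.36, SE 0.0601, edgeR adjusted p = 8.90e-05). The histone H3 genes Hist2h3c1, Hist2h3c2 and Hist2h3b stood near the head by footprint number and had log2 fold changes of 0.30, 0.32 and 0.32. They are near-identical copies that share footprints with each other and with other H3 genes, so the 3 values are not separate results.

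The factors that bring aminoacyl-tRNA to the ribosome changed little. Of 11 elongation factors and EEF1B partners tested, Eef1b2 rose and Eef2 fell, which is 18.2% beside 11.7% of all genes tested, and the median of the list was 0.025. Eef1b2 encodes a nucleotide exchange subunit of EEF1B and lies on chromosome 1 (chr1:63176825-63180486), with 821 and 762 CPM in the WT libraries and 982 and 907 CPM in the KO2 libraries (log2 fold change 0.25, SE 0.0639, edgeR adjusted p = 0.00728). Its change stood 0.026 from the median of chromosome 1, and that of Eef2 stood 0.0006 from the median of chromosome 10. In RNA, Eef1b2 changed by 0.10 and was not called, where the median of chromosome 1 was 0.28. Eef2 changed by -0.37 in RNA, where the median of chromosome 10 was -0.25. The difference between footprints and RNA was not called for either gene. Eef1d itself, counted on the transcript with the most counts, which lacks exon 5, had 282 and 269 CPM in the WT libraries and 296 and 281 CPM in the KO2 libraries (log2 fold change 0.066, SE 0.0692, edgeR adjusted p = 0.621). The transcript with the most footprints in the 4 libraries contains exon 5, which KO2 lacks, and there the change was -0.1649. Neither value is a clean measure of Eef1d synthesis, since the one leaves out exon 5 footprints of WT cells and the other counts them in WT cells alone.

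The other members were not called. Eef1g, the structural subunit, had 1513 and 1497 CPM in the WT libraries and 1611 and 1412 CPM in the KO2 libraries (log2 fold change 0.0074, SE 0.0647). Vars had 0.12 (SE 0.0669), and Eef1a1, the carrier itself, had 5723 and 5547 CPM in the WT libraries and 5819 and 5318 CPM in the KO2 libraries (log2 fold change -0.017, SE 0.0623). Ktn1, the ER anchor of EEF1D, had 94.1 and 99.1 CPM in the WT libraries and 80.7 and 77 CPM in the KO2 libraries (log2 fold change -0.28, SE 0.097, edgeR adjusted p = 0.0533), just short of the threshold. Both of its KO2 values lie below both WT values. Such a lack of overlap was met by 52.2% of all genes tested, and also by Vars and Tpt1, whose KO2 values lie above those of WT. The ER ribosome receptor Rrbp1 (0.066), Eif5a (0.025), Tpt1 (0.16) and Eef2k (-0.089), the kinase that inhibits EEF2, were not called either. Eef1a2, the muscle and neuron form, had 6 and 2 footprints in WT cells and 7 and 3 in KO2, with 0 RNA counts in all 4 RNA-seq libraries, and was not tested. Whether these few footprints are shared with its close paralog Eef1a1 was not tested.

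Ribosomal proteins are needed in large numbers by growing cells, and many of their genes have processed pseudogenes that can share reads. Of 49 large subunit proteins, 11 rose and 1 fell (24.5% called), and of 34 small subunit proteins, 4 rose and 2 fell (17.6%). Of all genes tested, 11.7% were called, 6.74% higher and 4.96% lower. Of the 2074 genes with the most footprints, from 92.87 CPM up, 23.2% were called, and Rpl7, Rpl13 and Rpl37a are among these genes. The medians of the lists were 0.048 and 0.084. All 6 large subunit genes of chromosomes 1 and 8 rose, as in Rpl37a with 497 and 465 CPM in the WT libraries and 685 and 630.1 CPM in the KO2 libraries (log2 fold change 0.45, SE 0.0654, edgeR adjusted p = 1.19e-05), Rpl7, Rpl31 and Rpl13. The 3 that fell, Rpl41 (-0.39), Rps26 (-0.31) and Rps15 (-0.24), lie on chromosome 10. Off the 4 chromosomes, where 7.99% of all genes tested were called, 5 of 41 large subunit and 3 of 29 small subunit genes rose and 0 fell. Rpl30 (0.30), Rpl32 (0.23), Rps27l (0.37), Rps20 (0.28) and Rps28 (0.22) were among those that rose. The RNA of these 5 genes was not called, with log2 changes of 0.054, -0.026, -0.10, 0.028 and -0.051, and the difference between footprints and RNA was not called for any of them either.

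Of 36 initiation factors, 3 rose and 3 fell (16.7% called, beside 11.7% of all genes), with the helicase Eif4a1 among the falls. Eif5b, which joins the subunits, rose on chromosome 1 (0.39), and Eif5 (-0.31) and Eif2b2 (-0.43) fell on chromosome 12. Of 23 cytosolic aminoacyl-tRNA synthetases and their scaffold proteins, 6 rose and 1 fell (30.4%), and 4 of the 6 rises, Eprs (0.29), Aars (0.30), Kars (0.22) and Dars (0.23), lie on chromosomes 1 and 8. Sars on chromosome 3 (0.22) and Gars on chromosome 6 (0.20) rose off them, and Eef1e1, a scaffold protein of the synthetase complex, fell (-0.30). Without WT replicate 2 edgeR called 1 member of the list higher and 0 lower, without KO2 replicate 1 it called 2 and 0, without WT replicate 1 it called 3 and 0, and DESeq2 called 0 in either direction.

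Listed targets of the transcription factor p53, which halts division or starts cell death after DNA damage, fell where they were called. Of 29 members tested, with Trp53 itself counted among them, 0 rose and 9 fell. This is 31.0%, beside 4.96% of all genes tested that fell, and the median of the list was -0.36, beside 0.0014 over all genes. Mdm2, the ubiquitin ligase that p53 induces and that degrades it, had 241 and 242 CPM in the WT libraries and 136 and 145 CPM in the KO2 libraries (log2 fold change -0.78, SE 0.0763, edgeR adjusted p = 1.15e-08). Cdkn1a, the cell cycle inhibitor p21, had 148 and 146 CPM in the WT libraries and 87.5 and 86.1 CPM in the KO2 libraries (log2 fold change -0.76, SE 0.0878, edgeR adjusted p = 2.87e-07). Perp, a desmosomal protein with a role in cell death, had 175 and 152 CPM in the WT libraries and 83.5 and 73.3 CPM in the KO2 libraries (log2 fold change -1.07, SE 0.0945, edgeR adjusted p = 2.00e-09).

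Ccng1, a cyclin, had 65.2 and 93.2 CPM in WT cells against 39.1 and 42.5 CPM in KO2, and the death receptor Fas had 11.8 and 11.7 CPM in WT cells against 6.3 and 6.08 CPM in KO2. Dcxr (-0.90), Plk3 (-0.85), Sesn2 (-0.59) and Trp53inp1 (-0.49, named after its values were seen) were the other members that fell. Perp and Mdm2 lie on chromosome 10, and their changes stood 0.80 and 0.52 below its median, while the other 7 lie off the shifted chromosomes. Trp53 itself, which encodes p53, had 479 and 470.4 CPM in the WT libraries and 476 and 458 CPM in the KO2 libraries and was not called (log2 fold change -0.023, SE 0.0634). The list was not uniform, since 7 of the 29 members lay above 0, up to 0.32, none of them called. For these 29 genes the median footprint change against WT was 0.075 in KO1 and -0.013 in KO3, comparisons that share the WT libraries with that of KO2. Set directly against each clone, the median of KO2 was -0.34 against KO1 and -0.27 against KO3. DESeq2 called 4 of the 29 lower in KO2 and 0 higher.

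Proteins that the liver secretes into plasma also fell more often than they rose. Of 58 in the table, 22 were tested, 2 rose and 12 fell (63.6% called, beside 11.7% of all genes tested), with a median of -0.52, and 13 had no footprint in any of the 4 libraries. Alb, the main plasma protein, had 1397 and 1329 CPM in the WT libraries and 873 and 739.5 CPM in the KO2 libraries (log2 fold change -0.76, SE 0.0685, edgeR adjusted p = 2.80e-09), and Afp, its fetal counterpart, 1439 and 1293 CPM in the WT libraries and 1170 and 1060 CPM in the KO2 libraries (log2 fold change -0.29, SE 0.0658, edgeR adjusted p = 0.00262). Fgb had 69.4 and 60.8 CPM in the WT libraries and 8.32 and 11.1 CPM in the KO2 libraries (log2 fold change -2.78, SE 0.173, edgeR adjusted p = 9.90e-13). DESeq2 called 9 of the 22 lower and 0 higher. Summed over the list, these genes held 6494 and 6044 CPM in WT cells and 4915 and 4534 CPM in KO2.

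The complement inhibitor Cfi had 30.3 and 28.7 CPM in WT cells against 3.03 and 4.73 CPM in KO2. Igfbp1, which binds insulin-like growth factors, fell by 0.67 on the log2 scale, Itih2, a hyaluronan-binding protein, by 0.43, the haem carrier Hpx by 0.81 and the anticoagulant Proc by 1.76. Transferrin (Trf, -0.17), Rbp4 (-0.19) and Pros1 (-0.072) were not called. The 2 members that rose, named after their values were seen, were the complement protein C3 (0.46) and the growth factor Igf2 (1.82). Igf2 had few footprints, 0.562 and 3.33 CPM in WT cells against 7.06 and 4.73 CPM in KO2. The list median against WT was -0.81 in KO1 and -0.15 in KO3, from comparisons that share the WT libraries. Directly compared, the median of KO2 was 0.43 against KO1 and -0.94 against KO3.

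Other liver genes were mixed. Of 19 tested genes of liver metabolism and detoxification, 0 rose and 6 fell (31.6%, beside 11.7% of all genes), among them Aldh2, which oxidises acetaldehyde, with 685 and 683 CPM in the WT libraries and 491 and 511 CPM in the KO2 libraries (log2 fold change -0.45, SE 0.0623, edgeR adjusted p = 5.77e-06), the urea cycle enzyme Ass1 (-0.72) and the cytochromes Cyp1a1 (-0.63) and Cyp1a2 (-1.21). Aldh1a1 (-0.11) was not called. Of 20 liver transcription factors, Foxa1 fell (-1.21) and Zhx2 rose (0.79), which is 10.0%. Hnf4a (-0.067) and Foxa2 (-0.072) were not called. Of 13 genes of lipoprotein assembly, 3 rose and 2 fell (38.5%). Apob, counted over its long coding sequence, had 106 and 103 CPM in the WT libraries and 159 and 138 CPM in the KO2 libraries (log2 fold change 0.51, SE 0.0899, edgeR adjusted p = 0.000206) and rose on chromosome 12, whose median fell. Mttp, which loads it with lipid, on chromosome 3 (0.71), and Apoc2 on chromosome 7 (1.23) rose too. Lrp1, a receptor for remnant particles on chromosome 10, fell (-0.54), as did Angptl4 (-0.55), and Apoe had 2798 and 2813 CPM in the WT libraries and 2818 and 2873 CPM in the KO2 libraries and was not called.

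Of the bile duct marker list, 2 genes rose, the keratin Krt7, with 60.1 and 56.6 CPM in the WT libraries and 154 and 158 CPM in the KO2 libraries (log2 fold change 1.41, SE 0.0951, edgeR adjusted p = 4.85e-12), and osteopontin (Spp1), with 686 and 698 CPM in the WT libraries and 909 and 967 CPM in the KO2 libraries (log2 fold change 0.44, SE 0.0622, edgeR adjusted p = 8.36e-06). Sox9 (0.17) and Epcam (-0.47) of the same list were not called, and Krt19 stood below 1 CPM in every library.

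**Figure D4:**
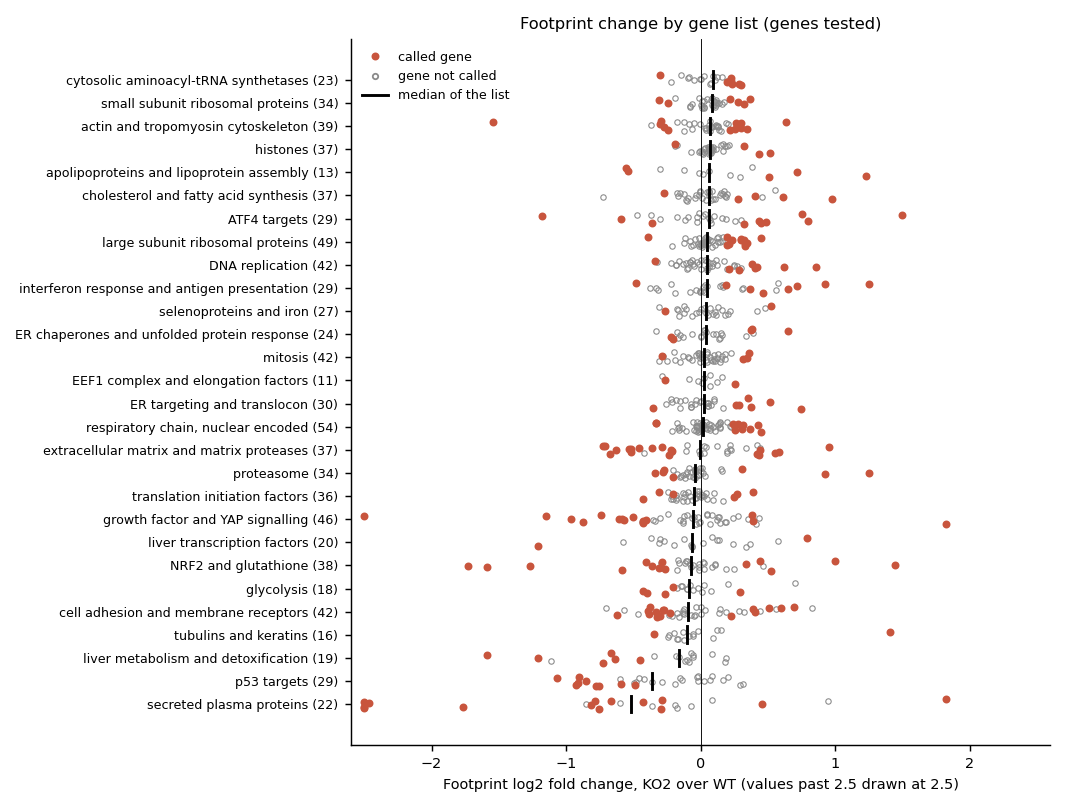
The footprint log2 fold change of each tested member is shown by gene list, with called genes filled, genes not called open and the list median as a bar, and with the number of genes tested in brackets. The plasma proteins and p53 targets have the lowest medians, -0.52 and -0.36, and the medians of the other lists lie between -0.16 and 0.091.

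Genes of the matrix, of adhesion and of growth signalling were called in both directions, at shares above the 11.7% of all genes tested. Of 37 matrix genes and matrix proteases, 6 rose and 13 fell (51.4%), of 42 adhesion molecules and receptors 6 rose and 10 fell (38.1%), and of 46 growth factor and YAP pathway genes 3 rose and 12 fell (32.6%). Thrombospondin 1 (Thbs1) had 571 and 607 CPM in the WT libraries and 395 and 365 CPM in the KO2 libraries (log2 fold change -0.63, SE 0.0658, edgeR adjusted p = 5.09e-08), and Ecm1 544 and 519.6 CPM in the WT libraries and 387 and 345 CPM in the KO2 libraries (log2 fold change -0.54, SE 0.0674, edgeR adjusted p = 1.16e-06). The protease Mmp10 had 60.4 and 50.8 CPM in the WT libraries and 115 and 102 CPM in the KO2 libraries (log2 fold change 0.95, SE 0.107, edgeR adjusted p = 1.75e-07), and the laminin chain Lamb3, on chromosome 1, rose by 0.59. The laminin chain Lamb2 fell by 0.52.

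The counts depended on the libraries, since without WT replicate 1 edgeR called 7 matrix genes and 3 adhesion genes lower, and DESeq2 called 5 and 2. Among receptors, Axl (0.70), Met, the receptor of hepatocyte growth factor (0.39), and Icam1 (0.41) rose. The ephrin receptor Epha2 (-0.38), the integrins Itgb4 (-0.62), Itga3 (-0.32) and Itgav (-0.30) and the desmosomal Dsp (-0.39) fell. Several targets and feedback genes of growth signals fell, such as Egr1 (-0.87), Dusp6 (-0.43), the EGF receptor ligands Areg (-0.96) and Hbegf (-0.59) and Id2 (-0.50). Of genes that Wnt signals induce, Lgr5 had 51.1 and 50.4 CPM in WT cells against 23.7 and 21.9 CPM in KO2, Sp5 had 148 and 119.5 CPM in WT cells against 88.8 and 72.3 CPM in KO2, and Notum went from 15 and 14 footprints in WT cells to 1 and 0 in KO2, a ratio of 33.7 with a 95% counting interval from 5.59 to 1376. Axin2, another of them, had 0.13 and Myc -0.012, and neither was called.

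Stress pathways gave calls in both directions. Of 29 targets of ATF4, the factor that raises amino acid synthesis when amino acids run short, 7 rose and 3 fell (34.5%, beside 11.7% of all genes), with a median of 0.062. Asns, which makes asparagine, had 314 and 296 CPM in the WT libraries and 392 and 373 CPM in the KO2 libraries (log2 fold change 0.33, SE 0.0675, edgeR adjusted p = 0.00119), and Mthfd2 (0.48), Aldh18a1 (0.43), Psph (0.45), the translation inhibitor Eif4ebp1 (0.76) and Pycr1 (0.80) rose too. Ddit4, which restrains mTORC1 and lies on chromosome 10, had 86.5 and 93.2 CPM in the WT libraries and 36 and 43.9 CPM in the KO2 libraries (log2 fold change -1.18, SE 0.117, edgeR adjusted p = 1.54e-08), and Phgdh fell as given above. Psat1 (0.078), Shmt2 (-0.029) and Slc38a2 (0.10) were not called. Of the enzymes of serine synthesis, Phgdh thus fell and Psph rose.

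Of 24 ER chaperones and sensors of unfolded protein, 3 rose and 2 fell (20.8%, beside 11.7% of all genes). The sensor kinase Eif2ak3 (0.65) and Edem1 (0.37) rose, Hsp90b1 on chromosome 10 (-0.20) and Pdia6 on chromosome 12 (-0.22) fell, and the chaperone Hspa5 had 1113 and 1080 CPM in the WT libraries and 1266 and 1147 CPM in the KO2 libraries and was not called (0.14). Of 30 genes that bring proteins to the ER and across its membrane, 6 rose and 1 fell (23.3%). Spcs3 of the signal peptidase on chromosome 8 (0.52), Srp9 (0.75) and Tram1 (0.35) on chromosome 1 rose and Srp54a on chromosome 12 fell (-0.35), each with its chromosome. Off the 4 chromosomes the channel subunits Sec61b (0.26) and Sec61g (0.28) and the signal recognition particle receptor Srpr (0.37) rose, while the channel itself, Sec61a1, was not called (0.055).

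Of 38 NRF2 targets and glutathione genes, 5 rose and 9 fell (36.8%, beside 11.7% of all genes). The falls include the mu-class glutathione transferases Gstm1, with 105 and 103 CPM in the WT libraries and 35.3 and 33.8 CPM in the KO2 libraries (log2 fold change -1.59, SE 0.111, edgeR adjusted p = 1.13e-11), and Gstm3 (-1.73), which like Gstm7 belong to a cluster of close paralogs on chromosome 3 that may share footprints. The glutathione synthetase Gss fell too (-0.59). Of the rises, Osgin1 (1.00), Mt1 (0.44) and Hmox1 (0.52) lie on chromosome 8 and Prdx6 (0.33) on chromosome 1. Of 29 interferon and antigen presentation genes, 7 rose and 1 fell (27.6%, beside 11.7%), led by the antigen-processing genes Psmb8, with 22.8 and 26.6 CPM in WT cells against 47.9 and 44.2 CPM in KO2, Psmb9 (1.25) and Tap2 (0.71) of chromosome 17 and by Bst2 on chromosome 8 (0.65), while the class I genes H2-D1 (0.16) and H2-K1 (0.035) were not called.

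Lists of housekeeping machinery had medians near 0, and many of their calls lay on the shifted chromosomes. In DNA replication 7 of 42 genes rose and 1 fell. All 7 rises are on chromosomes 1 and 8, Gins4 (0.62), Gins3 (0.86), Gins2 (0.42), Cdt1 (0.41), Mcm3 (0.28), Mcm6 (0.21) and Prim2 (0.38). The list has 9 tested members there, where 28.9% of all genes tested rose. The fall, of Rrm2 (-0.34), is on chromosome 12. Of the 30 genes tested off the 4 chromosomes 0 were called, beside 7.99% of all genes tested there. Without WT replicate 2 or KO2 replicate 1, 3 members were called higher, and by DESeq2 2. In the respiratory chain 8 of 54 rose and 2 fell (18.5%), 5 of the rises on chromosomes 1 and 8, such as Cox4i1 (0.42), and both falls, of Atp5b and Atp5d (-0.33), on chromosome 10. Atp5a1, the partner of Atp5b, had -0.18 and was not called. Of 18 glycolysis genes, 1 rose and 4 fell (27.8%), with Pfkl (-0.43) and Hk1 (-0.40) on chromosome 10.

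The remaining lists can be given by their counts. In mitosis 3 of 42 genes rose and 1 fell (9.52%), in the proteasome 3 of 34 rose and 4 fell (20.6%), and in cholesterol and fatty acid synthesis 4 of 37 rose and 1 fell (13.5%), with Msmo1 (0.61) and Mvd (0.98) on chromosome 8 and Fasn, the fatty acid synthase, falling by 0.27. Of 39 actin and tropomyosin genes, 7 rose and 5 fell (30.8%), and the abundant Actb (0.071) and Actg1 (0.15) were not called. Tubulins and keratins gave 1 rise, Krt7, and 1 fall, Tubb4b (-0.35), among 16 (12.5%). Histones gave 3 rises and 1 fall among 37 (10.8%), with the linker histone H1f0 at 0.52. Selenoproteins and iron genes gave 1 rise and 1 fall among 27 (7.41%), below the 11.7% of all genes tested.

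The RNA of the same lysates moved with the footprints for most called genes. The RNA test called 2346 of 11476 genes (20.4%), 1331 higher (11.6%) and 1015 lower (8.84%). Of the 1213 genes called by footprints, 1194 were tested for RNA, 927 of them (77.6%) were called in the same direction, 266 were not called and 1, Rps12, was called in the opposite one. Across the 1906 genes with at least 100 CPM of footprints, the log2 changes of footprints and RNA had a Pearson's r of 0.922, and across all 10180 genes tested for both, 0.773. These are correlations across genes, which are not independent replicates. The chromosome shifts were in the RNA as well, with medians of 0.28, 0.27, -0.25 and -0.20 on chromosomes 1, 8, 10 and 12. On no chromosome did the median of the footprint change minus the RNA change exceed 0.039 in size. The RNA of the p53 targets had a median of -0.35 and that of the plasma proteins -0.46. The ribosomal proteins did not share this pattern. In RNA 6 large subunit genes were called higher and 8 lower, with a median of -0.040 beside 0.048 in footprints. Of the small subunit genes, 0 were called higher and 7 lower in RNA, with a median of -0.073 beside 0.084 in footprints. The footprint median of all genes with 28 to 231 counted codons was 0.046, so a footprint median above 0 is not particular to these lists. Whether the lists differ between footprints and RNA was not tested as lists, and gene by gene the difference was called for Rps12 alone among them.

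**Figure D5:**
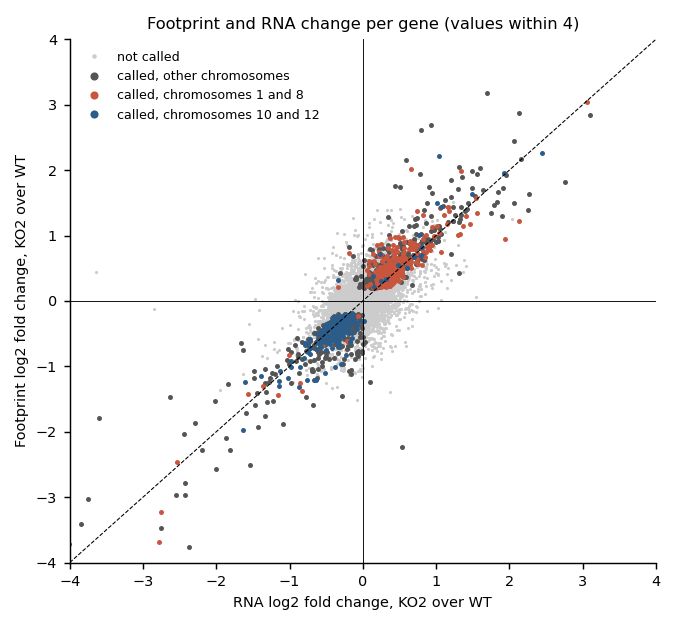
Each point is a gene, with its RNA log2 fold change on the horizontal and its footprint log2 fold change on the vertical axis, coloured by chromosome where its footprint change was called, and 10 of 10180 genes lie outside the axes. Called genes lie along the dashed line of equal change, with those of chromosomes 1 and 8 mainly in the upper right and those of chromosomes 10 and 12 in the lower left.

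A direct test of the footprint change against the RNA change called 2 of 11570 genes (0.0173%), both with the footprint change higher, and 495 had an unadjusted p under 0.05. Rps12, a small subunit ribosomal protein of chromosome 10, had 146 and 122 CPM in the WT libraries and 172 and 164 CPM in the KO2 libraries (log2 fold change 0.32, SE 0.0863, edgeR adjusted p = 0.0123), while its RNA had 1671 and 1657 CPM in WT cells and 1319 and 1303 CPM in KO2. The footprint change exceeded the RNA change by 0.67 on the log2 scale (SE 0.0997, edgeR adjusted p = 0.00101). Mmp3, a matrix protease, had 17.4 and 13.3 CPM in the WT libraries and 20.9 and 21.9 CPM in the KO2 libraries and was not called by footprints, but its RNA counts were 37 and 40 in WT cells and 5 and 1 in KO2, so that its difference of 4.06 rests on 6 RNA counts.

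KO2 was also set directly against the other clones, in 1 fit of all 8 Ribo-seq libraries whose contrasts take no WT level. The direct contrast of KO2 with KO1 called 3897 of 10763 genes (36.2%), 2089 higher (19.4%) and 1808 lower (16.8%) in KO2, and that with KO3 called 4142 (38.5%), 2123 higher (19.7%) and 2019 lower (18.8%). In that fit KO2 against WT gave 706 higher and 550 lower, fewer than against either clone.

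The chromosome medians of the clones differed as well. Against KO1 the median of KO2 was 0.19 on chromosome 1, 0.24 on chromosome 8 and -0.31 on chromosome 10, and -0.027 on chromosome 12. Against KO3 it was 0.38 on chromosome 1, 0.043 on chromosome 8, -0.33 on chromosome 10 and -0.48 on chromosome 12. Taken against WT, in comparisons that share the WT libraries, other chromosomes stood out in the other clones, such as chromosome 7 with -0.43 and chromosome 9 with -0.34 in KO1, and chromosome 18 with 0.33 and chromosome 6 with -0.31 in KO3.

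Single genes followed several patterns. Rhox5 was near 0 in all 3 clones, with 1.42 and 0.855 CPM in KO1 and 0.247 and 0.314 CPM in KO3. Tnfrsf11b had 0.609 and 0 CPM in KO1 but 169 and 175 CPM in KO3. Lbp stood at 0.98 in KO1 over WT and at 0.94 in KO3 over WT on the log2 scale, where KO2 had -3.47, and B3gnt3 had 0.203 and 0 CPM in KO1 and 0 and 0 CPM in KO3. Cdkn1a differed between KO2 and both other clones in the direct contrasts, by -0.29 against KO1 and -1.04 against KO3 on the log2 scale (edgeR adjusted p = 0.016 and 1.59e-13), and so did Mdm2, by -0.59 and -0.29 (edgeR adjusted p = 1.38e-07 and 0.00332).

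At the edge of the threshold, Pcyt2 (log2 fold change 0.41) and Urb2 (0.30) stood just inside, with edgeR adjusted p-values of 0.0499 and 0.0499, and Mboat7 (-0.37) and Pikfyve (0.48) just outside. Their CPM values did not overlap between the lines on either side of the threshold, which held for 52.2% of all genes tested. Urb2 had 80.1 and 95.8 CPM in WT cells against 112 and 100.3 CPM in KO2, and Pikfyve 23 and 29.1 CPM in WT cells against 33.3 and 38.8 CPM in KO2.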

How the data were processed

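Hepa1-6 cells were lysed with cycloheximide and chloramphenicol, lysates were digested with RNase I for Ribo-seq, and RNA-seq libraries were made from the same lysates. The authors trimmed reads with fastp 0.21.0 and aligned them with STAR 2.7.0a to mm10 with GENCODE vM23 after removal of non-coding RNA. The deposited values are raw counts per transcript, with footprints assigned by A site over the coding sequence without its first and last 5 codons. The table holds 67139 transcripts with 1 column for each of the 16 libraries.

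For each gene symbol the transcript with the largest sum over the 16 columns was kept. Footprint counts of KO2 and WT were tested with edgeR 4.0.16 (R 4.3.3; filterByExpr, TMM scaling, quasi-likelihood test, Benjamini-Hochberg adjustment, threshold 0.05), with 4 libraries in the fit and no covariate. RNA was tested the same way, the difference of both changes as an interaction, and KO2 against KO1 and KO3 as contrasts in a fit of all 8 Ribo-seq libraries. The SE of a log2 fold change was its size divided by the square root of F. In a test on simulated data of 10252 genes for KO2 against WT, 94 of 100 genes changed by log2 1 and 100 of 100 changed by log2 2 were recovered, with 13 false calls among 10052. The simulated counts used the spread estimated by edgeR from the same libraries, and the changed genes came from those above 10 CPM. Smaller changes were not simulated, so recovery near the called medians of 0.48 and 0.51 was not tested. Tables and permutation limits were made with Python 3.11.15, pandas 2.3.3 and scipy 1.17.1. Gene positions are GENCODE vM21 gene bounds on GRCm38. Intervals and the floor of 3 counts cover counting error only. The study states a DESeq2 test for translational efficiency only, and DESeq2 1.42.0 was run here as an alternative.

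The members and gene lists were chosen with earlier results of these data known. Genes were named by rule: the EEF1 list, the 12 largest rises and falls with at least 10 CPM in the higher line, the 12 called genes with the most footprints, up to 8 called and 3 not called members per list, and genes from the interaction, the clone contrasts, the threshold's edge and the shifted chromosomes. A few genes that the rule names are not reported here. A few genes outside the rule are marked as named after their values were seen. Whether the replicate numbers pair the samples could not be settled, as the sensitivity section describes.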

Additional observations from a re-analysis of the deposited data

Results flagged for a closer look

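The test of the difference between KO2 and each of the other exon 5 KO clones called many genes. In the direct contrast with KO1, which was made with the same plasmid pair, 2089 genes were higher and 1808 lower in KO2. In that with KO3, 2123 genes were higher and 2019 lower.

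These results stand here because a direct test found a difference between clones under the same comparison with WT. The named genes of the contrast with KO1 were taken by p-value among genes also called against WT. Osteopontin (Spp1) had a log2 fold change of KO2 over KO1 of 2.9, the cysteine protease Ctsl 1.79 and Serpinb2, an inhibitor of plasminogen activators, 4.47. Thbs1 had -2.26, Enpp2, which makes lysophosphatidic acid, -3.22 and Lbp -4.45. In the contrast with KO3, the chemokine Ccl2 had a log2 fold change of KO2 over KO3 of 4.17 and Wnt6, a Wnt ligand, 3.33. Ccdc80 had -2.23 and Lrp1 -2.24. Tnfrsf11b, with 0 footprints in KO2, was at least 398-fold higher in KO3, counted against a floor of 3 footprints over both KO2 libraries. What sets the clones apart was not tested.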

How the results depend on the processing

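None of the 1213 genes called between KO2 and WT changed direction under any alternative tried, and between 324 and 1213 of them were called again. DESeq2's Wald test called 324 genes (186 higher, 138 lower) between KO2 and WT, 1404 (814 and 590) for RNA, 1918 (1112 and 806) for KO2 against KO1 and 2237 (1209 and 1028) for KO2 against KO3. Without chromosomes 1, 8, 10 and 12, 666 genes were called (345 higher, 321 lower), with the number of genes tested reduced by construction. Leaving out each library in turn gave 710 to 1060 genes between KO2 and WT, 414 to 584 higher and 296 to 476 lower. The lowest counts came without WT replicate 1. For RNA it gave 1390 to 2523, 832 to 1408 higher and 550 to 1115 lower, with 1390 without WT replicate 1 and 1480 without WT replicate 2. For KO2 against KO1 it gave 1891 to 3612, 1038 to 1950 higher and 853 to 1662 lower, the lowest without KO1 replicate 1. For the footprint change against the RNA change it gave 1 to 3 genes, 1 to 2 higher and 0 to 1 lower, and 1 gene was lower with no filter on low counts and with the replicate block.

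The medians of the 4 chromosomes kept their sign under every alternative tried. Leaving out a library gave 0.2688 to 0.2948 on chromosome 1, 0.2595 to 0.2714 on chromosome 8, -0.2687 to -0.2549 on chromosome 10 and -0.207 to -0.1787 on chromosome 12. With no filter on low counts chromosome 1 had 0.2558 and chromosome 12 had -0.19, with libraries thinned to the smallest chromosome 8 had 0.2523, and with DESeq2 chromosome 12 had -0.1924. With TMM factors from genes off the 4 chromosomes, chosen after seeing the data, chromosome 8 had 0.2796, chromosome 10 had -0.2541 and chromosome 12 had -0.1945. The cause of these differences was not tested.

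The direction turned only for genes that were not called. Eef1d had -0.1649 on the transcript with the most footprints and -0.1646 on the longest coding sequence, both with exon 5. Eef2k had 0.0153 after thinning. Leaving out a library in turn gave -0.0938 to 0.0978 for Eef1g, -0.0855 to 0.0462 for Eef1a1, -0.4654 to 0.3089 for Eef2k, -0.0126 to 0.0605 for Eif5a, -0.066 to 0.1732 for Rrbp1, -0.0216 to 0.1606 for Psat1, -0.1392 to 0.0081 for Hnf4a, -0.0528 to 0.002 for Trp53, -0.1111 to 0.1568 for H2-K1 and -0.0536 to 0.0357 for Myc.

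The deviations of same-numbered libraries had correlations of 0.0307 to 0.0946, all positive. Counting noise lowers such values, so they cannot show that the replicate numbers do not pair the samples. The main fit holds no term for a pairing. With the replicate block, edgeR called 1682 genes between KO2 and WT, 930 higher and 752 lower, beside 1213 in the main fit. For RNA it called 2907 genes with the block, beside 2346 in the main fit. Depth limits calls among the genes with the fewest footprints, and 972 genes were called with libraries thinned to the smallest.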
